A study of Homo sapiens with 2 samples.

Results

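The genes described here are 10 genes of the ERBB signalling system, chosen by name from the 38637 genes of the deposited table: the receptors EGFR, ERBB2 and ERBB3, the ligands TGFA, HBEGF, AREG, EREG and NRG1, and the receptor inhibitors ERRFI1 and LRIG1. In the PHF12 knockdown library both inhibitor transcripts were lower than in the control library, ERRFI1 at 0.710 and LRIG1 at 0.738 of the control level. The ligand TGFA was higher, at 1.26 times the control level, and the 5 other measured genes lay between 0.8 of the control level and 25% above it. EGFR stood at 0.857 of control and ERBB2 at 0.962. AREG and EREG had almost no counts in either library.

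ERBB receptors are single-pass membrane tyrosine kinases that form dimers when a ligand binds and then pass the signal to the RAS and PI3K pathways. Their ligands are made as membrane-anchored precursors that metalloproteases cut free. TGFA, HBEGF, AREG and EREG bind EGFR, and NRG1 binds ERBB3. ERBB2 has no known soluble ligand and acts as a dimer partner, and ERBB3 has a kinase domain with little activity. ERRFI1 (also called MIG6) binds the EGFR kinase domain and blocks it, and its transcription is itself induced by growth factor signals. LRIG1 is a membrane protein that promotes degradation of ERBB receptors. EGFR is a known driver gene of lung adenocarcinoma.

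The samples were 2 RNA libraries of H1299, an established human non-small cell lung cancer line, with 1 library per group. The control carries a treatment label of none and a title that ends in nc, and the other library is labelled as PHF12 KD, with the prefix si in its title. Both are labelled wild type. The sources used here do not say whether the control cells received a control oligonucleotide, or how long after treatment RNA was taken. The series title names HDAC1, EGFR and AKT, so the comparison asks how lowering PHF12, a subunit of a histone deacetylase complex, relates to EGFR signalling.

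The control library totalled 24740581 counts, the knockdown library 26084594. With 1 library per group no difference has a replicate check: every ratio below compares these 2 libraries, not the conditions. Ratios are knockdown over control after trimmed mean of M-values (TMM) scaling, and their 95% intervals cover counting error only. PHF12 itself had 947 counts in the control library against 756 after knockdown, a log2 ratio of −0.41 (−0.55 to −0.27). The knockdown target thus stood at 0.753 of the control level, and 11.031% of all measured genes had a larger absolute log2 ratio. Among these were ERRFI1 at −0.50 and LRIG1 at −0.44, although the interval of LRIG1 (−0.67 to −0.21) includes the PHF12 value. HDAC1 had 2936 and 4330 counts (log2 ratio 0.48, 0.41 to 0.54), and AKT1 had 6615 and 8094 (0.21, 0.16 to 0.25). Among cell type markers, KRT8, KRT18 and VIM were abundant in both libraries, while CDH1 had 0 counts in both and the 4 lung alveolar markers, NKX2-1, SFTPB, SFTPC and NAPSA, were each under 1 TPM (transcripts per 1000000). The summed level of 6 epithelial markers was 3341 TPM in the control library and 2664 TPM after knockdown. KRT8 (1147 and 888 TPM) and KRT18 (2189 and 1772 TPM) made up nearly all of it. EPCAM went from 1.38 to 1.74 TPM, KRT19 from 0.405 to 1.01 and KRT7 from 2.94 to 2.08. The part of these differences in the results below was not tested. Of the 5 leukocyte markers PTPRC and CD3E were at 0 in both libraries, and CD68, which many cell types express, made up nearly all of their summed level of 258 and 321 TPM. The 3 endothelial, 4 fibroblast and 2 erythroid markers summed to at most 1.24 TPM per class in either library.

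A gene was taken as measured when its mean over both libraries was at least 1 CPM (counts per 1000000), which 14559 genes and 8 of the 10 ERBB genes passed. AREG and EREG did not pass. A gene was counted as lower at 0.8 of the control level or less, and as higher at 25% above it or more. By this rule 2 of the 8 measured genes were lower, where 9.41% of all measured genes were. Of the same 8 genes, 1 was higher, where 8.28% of all measured genes were. With so few genes these shares rest on single genes. The genes and the fold were also chosen with earlier results of these data known, so the shares are no independent comparison. The median log2 ratio of the 8 genes was −0.25, against −0.01 over all measured genes, with 6 genes below 0 and 2 above. None of the 8 differed by 1.5-fold, which 2.29% of measured genes did downwards and 2.16% upwards, or by 2-fold, which 0.316% and 0.33% did.

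The sequence before the transcription start is shown for the 3 genes counted as lower or higher and for the pair of ligand genes with almost no counts. Each line gives the 250 bases before the start that the deposited table lists for the gene, from RefSeq on GRCh38.p14, read 5′ to 3′ on the gene's strand. The windows are chr1:8026310-8026559 (minus strand) for ERRFI1, chr3:66501122-66501371 (minus) for LRIG1, chr2:70553827-70554076 (minus) for TGFA, chr4:74444886-74445135 (plus) for AREG and chr4:74364895-74365144 (plus) for EREG. Capitals mark matches on either strand to the GC box GGGCGG, the CCAAT box CCAAT, the TATA box TATAAA, the cAMP response element TGACGTCA and the AP-1 site TGANTCA.
ERRFI1: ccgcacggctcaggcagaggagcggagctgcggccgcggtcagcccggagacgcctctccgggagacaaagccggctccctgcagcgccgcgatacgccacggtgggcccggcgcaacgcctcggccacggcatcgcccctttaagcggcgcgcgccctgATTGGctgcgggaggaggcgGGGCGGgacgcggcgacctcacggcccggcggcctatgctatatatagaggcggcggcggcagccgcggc
LRIG1: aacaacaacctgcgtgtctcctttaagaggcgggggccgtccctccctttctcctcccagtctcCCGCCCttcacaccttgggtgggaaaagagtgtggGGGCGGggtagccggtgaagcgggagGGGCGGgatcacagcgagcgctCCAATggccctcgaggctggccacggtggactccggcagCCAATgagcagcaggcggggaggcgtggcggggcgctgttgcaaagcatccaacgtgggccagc
TGFA: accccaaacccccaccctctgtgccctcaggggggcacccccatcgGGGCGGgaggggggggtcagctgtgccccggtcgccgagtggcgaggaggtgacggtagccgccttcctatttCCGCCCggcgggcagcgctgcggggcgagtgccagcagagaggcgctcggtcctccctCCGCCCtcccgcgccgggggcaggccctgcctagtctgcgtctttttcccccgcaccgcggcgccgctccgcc
AREG: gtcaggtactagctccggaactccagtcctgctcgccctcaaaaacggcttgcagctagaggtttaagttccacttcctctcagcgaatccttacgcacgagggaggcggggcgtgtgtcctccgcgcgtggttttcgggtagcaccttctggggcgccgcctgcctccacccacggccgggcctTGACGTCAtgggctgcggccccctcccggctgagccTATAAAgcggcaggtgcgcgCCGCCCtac
EREG: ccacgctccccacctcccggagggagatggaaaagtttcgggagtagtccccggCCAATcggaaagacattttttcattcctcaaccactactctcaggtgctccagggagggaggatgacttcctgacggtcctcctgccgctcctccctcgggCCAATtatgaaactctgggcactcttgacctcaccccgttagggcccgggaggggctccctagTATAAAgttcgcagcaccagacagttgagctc

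Of the 10 genes, 8 had a window at the listed start, and the sequences of ERBB3 and NRG1 are not shown. The letters TATAAA were present in the windows of AREG and EREG, 32 bases before the start in EREG and 29 bases before it in AREG, and in none of the 6 other windows, where 10.7% of all 35116 windows in the RefSeq table held them. The letters TGACGTCA were present in AREG alone of the 8, and in 1.65% of all windows. GC boxes were present in the windows of EGFR, ERRFI1, LRIG1, TGFA, HBEGF and AREG, with 5 matches in HBEGF of which a pair overlap, and in 42.6% of all windows. CCAAT boxes were present in ERBB2, ERRFI1, LRIG1 and EREG and in 32.0% of all windows, and an AP-1 match was present in ERBB2 alone and in 6.57% of all windows. The GC content of the windows ran from 58.0% in EREG to 76.4% in HBEGF, against a median of 58.0% over all windows. These matches describe letters in a window and do not show that a factor binds there. Other spellings of these elements were not searched.

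None of the 3 receptor genes was lower or higher by the rule. EGFR, on the plus strand of chromosome 7 from 55019017 to 55211628 (hg38), had 3745 counts in the control library against 3403 after knockdown. These correspond to 36.9 and 32.1 TPM by the authors' deposited values, and the log2 ratio was −0.22 (−0.29 to −0.16). In bulk RNA such as this, fewer cells of a type and less RNA per cell cannot be told apart. The EGFR difference exceeded counting error, but 30.9% of all measured genes had a larger absolute log2 ratio. Of the 1493 other genes at least as abundant in CPM as EGFR, 210 (14.1%) did, a comparison chosen after the values were seen. ERBB2, the dimer partner of the other receptors (chromosome 17, 39688094 to 39728660), had 1062 and 1083 counts, or 18.7 and 18.3 TPM. Its log2 ratio of −0.06 had an interval from −0.18 to 0.07, so a difference was not detectable at this depth. ERBB3, the neuregulin receptor (chromosome 12, 56080108 to 56103505), had 168 and 147 counts, or 3.09 and 2.60 TPM. Its log2 ratio of −0.28 (−0.61 to 0.05) was as far from 0 as that of EGFR, on counts too few to separate it from 0.

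Among the receptor transcripts EGFR had the largest share. It made up 62.8% of the summed TPM of the 4 receptor genes in the control library and 60.5% after knockdown, ERBB2 31.9% and 34.5%, and ERBB3 5.27% and 4.89%. ERBB4, the fourth receptor of the family, had 6 and 9 counts and at most 0.145% of the sum. The summed level of the 4 genes was 58.7 TPM in the control library and 53.1 TPM after knockdown. The ratio of EGFR to ERBB2, which no scaling of the libraries can alter, was 1.97 in TPM in the control library and 1.76 after knockdown, a change to 0.891 (0.808 to 0.983).

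**Figure D1:**
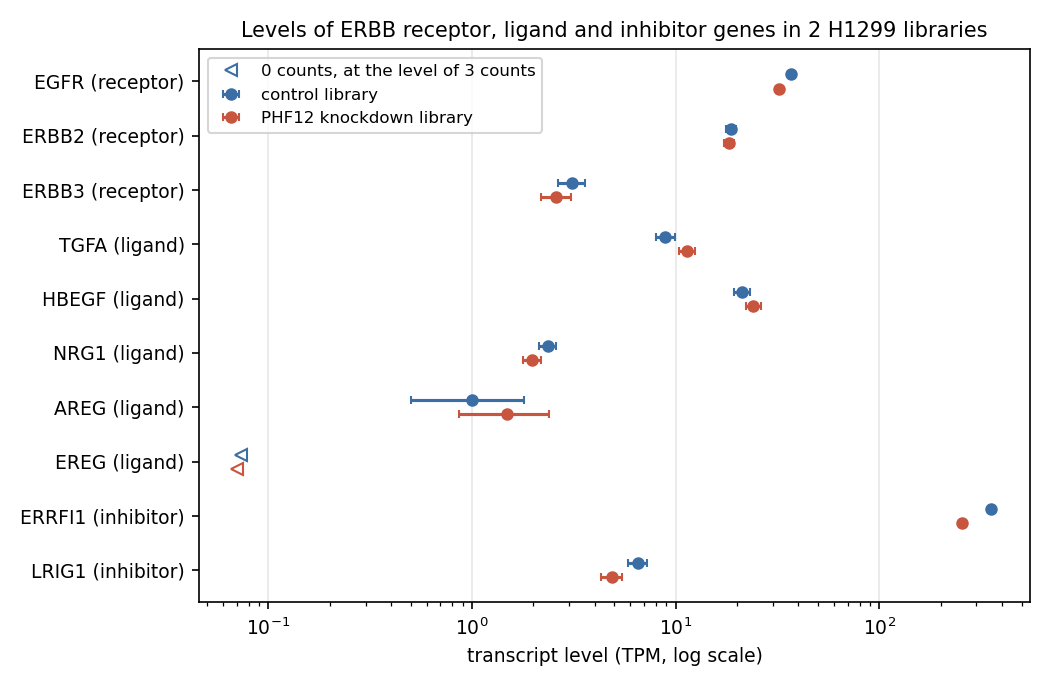
Transcript levels (TPM, log axis) of the 10 ERBB genes in the control library (blue) and the PHF12 knockdown library (red). Points are the authors' deposited TPM, bars are exact 95% Poisson intervals of the counts, and open triangles mark EREG, which had 0 counts, at the level of 3 counts; ERRFI1 lies furthest right, at 353 TPM in the control library and 255 TPM after knockdown.

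Of the 3 measured ligand genes, TGFA was higher by the rule and none was lower. TGFA encodes transforming growth factor alpha and lies on the minus strand of chromosome 2 from 70447284 to 70553826. It had 347 counts in the control library against 462 after knockdown, or 8.91 and 11.4 TPM. The log2 ratio was 0.33 (0.12 to 0.53), only just past 25% above control (0.3219 on this scale), and with 0.5 CPM added to both libraries it was 0.3182 and missed that limit. HBEGF encodes heparin-binding EGF-like growth factor, on chromosome 5 from 140332843 to 140346603. It had 444 and 526 counts, 21.2 and 24.1 TPM, and a log2 ratio of 0.16 with an interval from −0.03 to 0.35. The ratio of TGFA to HBEGF changed by a factor of 1.12 (0.927 to 1.36), so these EGFR ligands could not be told apart in their difference.

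NRG1 encodes neuregulin 1 and lies on chromosome 8 from 31639245 to 32774046. It had 411 counts in the control library against 358 after knockdown, 2.36 and 1.97 TPM, and a log2 ratio of −0.28 (−0.49 to −0.08). NRG1 was thus on the other side of 0 from TGFA, and the ratio of TGFA to NRG1 changed by a factor of 1.53 (1.247 to 1.87). Its TPM is low for its count because the table lists a length of 19608 bases for the gene, the longest of the 10.

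AREG and EREG lie side by side on chromosome 4, in a cluster of 4 ligand genes that spans 487 kb and includes EPGN and BTC. AREG, from 74445136 to 74455005, had 11 and 17 counts, 1.002 and 1.49 TPM, and a log2 ratio of 0.54 with an interval from −0.64 to 1.78 that leaves its direction unknown. EREG, from 74365145 to 74388749, had 0 counts in both libraries. With the limit for a count of 0 set at 3 counts, this allows up to 0.0731 TPM in the control library and 0.0701 TPM after knockdown. No count in either library was also found for 16.2% of the protein-coding genes listed. EPGN, the gene of epigen, had 0 and 1 counts, and BTC, the gene of betacellulin, had 53 and 56 counts with a log2 ratio of −0.01 (−0.57 to 0.56). Across all 11 ligand genes of the family the summed level was 47.1 TPM in the control library and 53.8 TPM after knockdown. HBEGF made up 44.9% and 44.7% of these sums, NRG2 23.7% and 22.9%, and TGFA 18.9% and 21.1%. Each of the 4 genes of the chromosome 4 cluster had at most 1.49 TPM in either library.

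**Figure D2:**
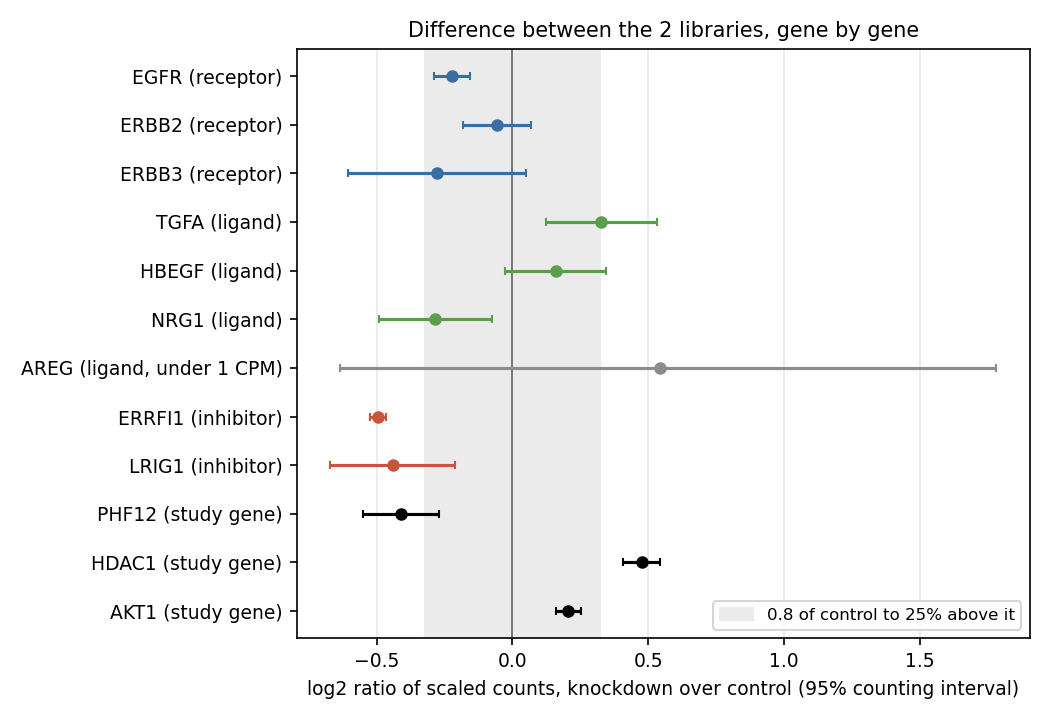
Log2 ratio of TMM-scaled counts, knockdown over control, for 9 ERBB genes and for PHF12, HDAC1 and AKT1. Points are the ratios of the 2 libraries, bars are exact 95% counting intervals and the grey band runs from 0.8 of control to 25% above it; ERRFI1 (−0.50) and LRIG1 (−0.44) lie left of the band, TGFA (0.33) lies at its right edge, and AREG has the widest bar on 11 and 17 counts.

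Both inhibitor genes were lower in the knockdown library. ERRFI1, on the minus strand of chromosome 1 from 8011725 to 8026309, had 21434 counts in the control library against 16127 after knockdown. In TPM it stood at 353 and 255, and the log2 ratio was −0.50 (−0.52 to −0.47). It was the most abundant of the 10 genes: only 3.28% of measured protein-coding genes had a higher TPM in the control library, and 4.88% after knockdown. Of all measured genes 7.10% had a larger absolute log2 ratio. Among the 114 other genes at least as abundant in CPM as ERRFI1, 2 (1.75%) had a larger absolute log2 ratio. Both were lower in the knockdown library. The same share was 3.97% for LRIG1, 8.39% for TGFA, 12.2% for NRG1, 14.1% for EGFR and 16.1% for ERBB3. For HBEGF it was 33.0% and for ERBB2 68.5%. These comparisons were chosen after the values were seen. By the letters searched, the promoter window of ERRFI1 printed above holds 1 GC box and 1 CCAAT box. Its letters tatatata near the start were not among those searched.

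LRIG1, on the minus strand of chromosome 3 from 66378797 to 66501121, had 358 and 280 counts and 6.50 and 4.88 TPM. The log2 ratio was −0.44 (−0.67 to −0.21), and 9.49% of measured genes had a larger absolute value. Of ERRFI1 and LRIG1 the former was 54.3 times as abundant in TPM in the control library and 52.3 times after knockdown, and this ratio changed by a factor of 0.962 (0.822 to 1.13). Counting error does not separate the difference of ERRFI1 from that of LRIG1, whose levels lie far apart.

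Ratios between ERBB genes show unequal differences without depending on how the libraries were scaled. ERRFI1 per EGFR was 9.58 in TPM in the control library and 7.93 after knockdown, a change to 0.828 (0.787 to 0.871). ERRFI1 per ERBB2 went from 18.9 to 13.9, a change to 0.738 (0.676 to 0.805). TGFA per EGFR went from 0.242 to 0.354, a change by a factor of 1.47 (1.26 to 1.70). ERRFI1 was therefore lower relative to both receptors and TGFA higher relative to EGFR in the knockdown library. EGFR per ERBB3 changed by a factor of 1.04 (0.823 to 1.31), which counting error does not separate from 1.

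**Figure D3:**
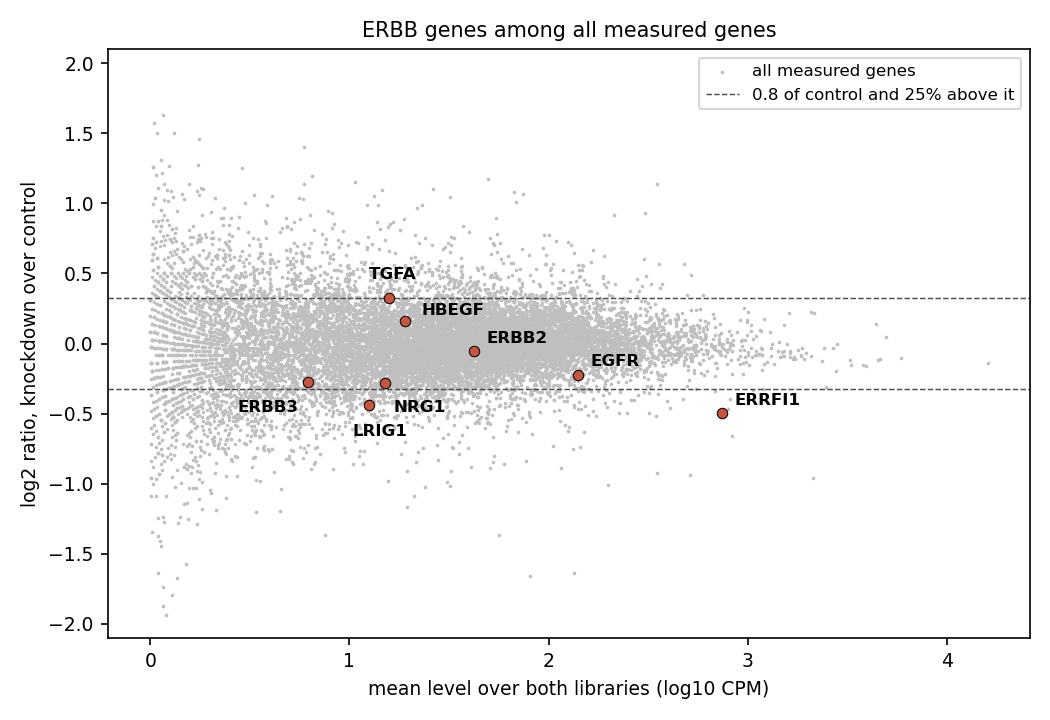
Log2 ratio, knockdown over control, against mean level (log10 CPM) for the 14559 measured genes (grey) with the 8 measured ERBB genes in red; dashed lines mark 0.8 of control and 25% above it. ERRFI1 lies low at the abundant end, where 2 of the 114 genes at least as abundant had a larger absolute log2 ratio, while EGFR, ERBB2, ERBB3, NRG1 and HBEGF lie between the dashed lines.

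The order of levels was the same in both libraries. From the highest TPM to the lowest it ran ERRFI1, EGFR, HBEGF, ERBB2, TGFA, LRIG1, ERBB3, NRG1, AREG and EREG. In the control library the Poisson intervals of HBEGF and ERBB2 overlapped (19.3 to 23.2 TPM and 17.6 to 19.9 TPM), and those of the other neighbours did not. In the knockdown library HBEGF and ERBB2 lay apart (22.1 to 26.2 TPM and 17.2 to 19.4 TPM), and the intervals of NRG1 and AREG overlapped (1.77 to 2.19 TPM and 0.866 to 2.38 TPM). TPM depends on the listed gene lengths, which for genes with many alternative exons such as NRG1 exceed the length of a single transcript.

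Counting intervals alone called more genes. The interval lay below 0 for 4 of the 8 measured genes (EGFR, ERRFI1, LRIG1 and NRG1), where 20.9% of all measured genes had such an interval. It lay above 0 for 1, TGFA, where 20.3% of all measured genes did. Since about this share of genes in each direction differed beyond counting error between the libraries, such an interval says little about any single gene. Both shares cover all genes from a mean of 1 CPM, while the means of the 8 genes ran from 6.21 to 743 CPM. More counts give a narrower interval, so these are not the shares among genes of like abundance.

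The neighbours of the ERBB genes on the chromosome gave no common direction. PARK7, the nearest measured protein-coding gene on 1 side of ERRFI1, had a log2 ratio of 0.01 (−0.05 to 0.06), and SLC45A1 on the other side had −0.27 (−0.60 to 0.05) on 171 and 150 counts. LRIG1 lies between MAGI1, at 0.32 (0.19 to 0.44), and KBTBD8, at 0.10 (−0.30 to 0.51). The neighbours of TGFA, FAM136A at −0.05 (−0.13 to 0.03) and ADD2 at −0.17 (−0.27 to −0.08), were not higher. EGFR has SEC61G at 0.09 (−0.02 to 0.20) and LANCL2 at 0.15 (−0.0020 to 0.30) on its sides. Those of ERBB2, ERBB3 and HBEGF lay between −0.11 and 0.12. For NRG1 both neighbours were below 0, WRN at −0.23 (−0.43 to −0.04) and FUT10 at −0.59 (−0.87 to −0.31).

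The sources used here do not give the strand setting of the counting, so reads from a gene and one that overlaps it on the other strand cannot be separated. EGFR overlaps the antisense gene EGFR-AS1, with 15 and 27 counts, and LOC105375284, with 28 and 16, both small beside its own counts. ERBB2 shares 151 bases with MIEN1 (599 and 589 counts, log2 ratio −0.11), and LRIG1 shares 1225 bases with SLC25A26 (282 and 274 counts, −0.13). For LRIG1 this neighbour has nearly as many counts as the gene itself, and the part of shared reads in its value was not tested. ERBB3 overlaps LOC105369782 (22 and 12 counts). MIR4728, a microRNA gene within ERBB2 on the same strand, had 0 counts. No listed gene overlaps ERRFI1, HBEGF, AREG or EREG, and those within TGFA (TGFA-IT1 and LOC107985895) and within NRG1 lie on the same strand and had at most 6 counts.

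Genes that act around the receptors were described as 6 lists with 93 genes, of which 80 were measured. Of these, 6 were lower (7.50%, against 9.41% of all measured genes) and 3 higher (3.75%, against 8.28%). Their median log2 ratio was −0.03. Most of the calls downwards lay close to the limit: 4 genes were lower with total-count scaling, 2 with DESeq2 size factors and 1, SHC2, with the deposited TPM, while 8.93%, 8.52% and 8.19% of all measured genes were.

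The list of ligand shedding holds proteases that release the ligands, and partners of these proteases. It had the highest median at 0.19 over 11 measured genes, with 7 above 0. None was lower and 2 were higher (18.2%, against 8.28% of all measured genes). These were ADAM19, at a log2 ratio of 0.39 (0.17 to 0.60) on 303 and 420 counts, and ADAM12, at 0.49 (−0.12 to 1.11) on 39 and 58, an interval that includes 0. With 1 CPM added to both libraries ADAM12 was at 0.3179, short of the limit, and 1 gene was higher. With total-count scaling, DESeq2 size factors or the deposited TPM 3 were. ADAM17, the main sheddase of TGFA, HBEGF and AREG, stood at 0.07 (−0.02 to 0.16) on 2025 and 2251 counts. ADAM10, which also cuts ERBB ligands, stood at 0.20 (0.13 to 0.28) on 2670 and 3258. RHBDF1 and RHBDF2, which carry ADAM17 to the cell surface, stood at −0.15 (−0.35 to 0.04) and −0.14 (−0.25 to −0.03).

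Receptor ubiquitination, endocytosis and recycling had a median of −0.03 over 19 measured genes, with 2 lower (10.5%, against 9.41% of all measured genes) and none higher. EHD1, a protein of the recycling endosome, stood at −0.33 (−0.39 to −0.26) on 4395 and 3714 counts, and RAB11FIP1, a partner of RAB11 in recycling, at −0.33 (−0.52 to −0.15) on 549 and 462. Neither was lower with DESeq2 size factors, at −0.309 and −0.315, or with the deposited TPM, at −0.303 and −0.309. CBL, the ubiquitin ligase that marks active EGFR for degradation, stood at 0.05 (−0.03 to 0.13) on 2464 and 2697. The list of other receptor inhibitors and phosphatases had a median of −0.05 over 16 measured genes. SOCS2, a suppressor of cytokine signalling, was the only gene lower by the rule (6.25%, against 9.41% of all measured genes), and none was higher. It stood at −0.33 (−0.61 to −0.05) on 237 and 200 counts. SOCS2 missed the limit under each of the 5 other scalings and pseudocounts tried, at −0.321 to −0.295. LRIG2, a relative of LRIG1, stood at −0.05 (−0.27 to 0.18) on 324 and 332 counts, and LRIG3 had 1 count in each library.

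Adaptors and effectors had a median of −0.0037 over 20 measured genes. Of these SHC2 was lower (5%, against 9.41% of all measured genes), and none was higher. SHC2 stood at −0.49 (−0.93 to −0.06) on 106 and 80 counts. GRB2, the adaptor that links EGFR to RAS activation, stood at −0.09 (−0.15 to −0.02) on 3972 and 3965 counts, and SHC1 stood at 0.21 (0.17 to 0.25) on 9000 and 11014. The list of chaperones, the receptor-associated mucin MUC1 and transcription factors of the EGFR and ERBB2 genes had a median of −0.08 over 11 measured genes. In this list 2 were lower (18.2%, against 9.41% of all measured genes) and 1 higher (9.09%, against 8.28%). EGR1, an early gene that growth factors induce, was lower at −0.35 (−0.43 to −0.27) on 2727 and 2274 counts, and TFAP2A, a factor that binds the ERBB2 promoter, at −0.34 (−0.50 to −0.17) on 687 and 577. With the deposited TPM neither was lower, EGR1 at −0.3218 and TFAP2A at −0.311, and with DESeq2 size factors TFAP2A was at −0.318. MUC1 was higher at 0.40 (0.15 to 0.65) on 227 and 317 counts. Of the remaining receptor and ligands of the family, 3 of 7 were measured and none was lower or higher by this rule. These were BTC, NRG4 at −0.15 (−0.45 to 0.14) on 198 and 189 counts, and NRG2, another neuregulin, at 0.12 (−0.01 to 0.25) on 874 and 1007. Below the minimum of 1 CPM, EGF, a ligand of EGFR, had 2 and 15 counts (log2 ratio 2.82, 0.72 to 5.99), and NRG3, a further neuregulin, had 17 and 6 (−1.59, −3.22 to −0.18). ERBB4 and EPGN are the others that did not pass.

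**Figure D4:**
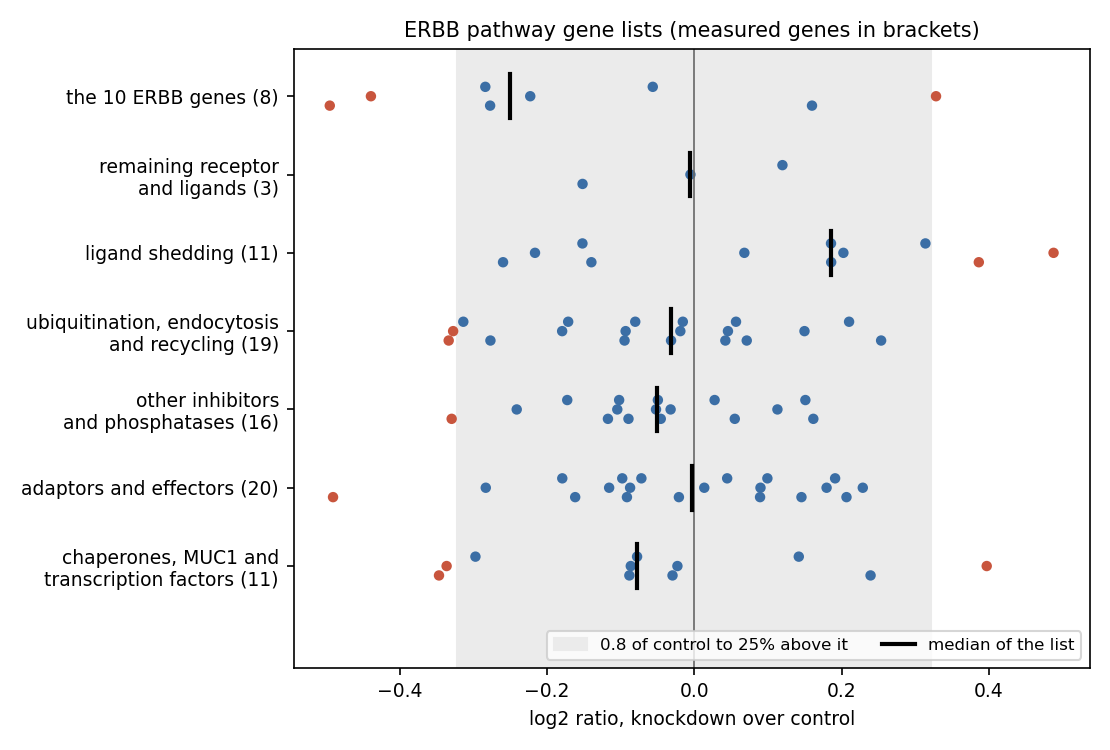
Log2 ratio, knockdown over control, of the measured genes in the ERBB set and in 6 lists of genes that act around the receptors. Each point is a gene, red where lower or higher by the rule and blue otherwise, and black bars are list medians, which run from −0.25 for the ERBB genes to 0.19 for ligand shedding.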

How the data were processed

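RNA was measured in 2 H1299 libraries, 1 control and 1 PHF12 knockdown, grouped by the treatment label. Per the labels' protocols, mRNA was selected with oligo(dT) and sequenced as paired-end reads. Alignment to hg38 used HISAT2 and gene counting used HTSeq, per the submitters' processing notes, with versions and strand setting not given in the sources used here. Deposited values are raw gene counts and TPM, per the file headers. TPM recomputed from the counts and listed lengths matched to within 1e-06.

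From the counts, TMM factors were computed with edgeR 4.0.16 (R 4.3.3) and were 0.997 and 1.003. Genes were kept at a mean of at least 1 CPM. Log2 ratios carry no pseudocount, and a library at 0 beside counts in the other takes a floor of 3 counts. Intervals are exact conditional Clopper-Pearson intervals for 2 Poisson counts (95%); those of ratios between genes are exact conditional or, with a count of 5000 or more, log-normal. They cover counting error only. Reads carry no molecular identifiers. No test was possible with 1 library per group. Depth was 24740581 and 26084594 counts. The ratio, interval and call were tested on simulated Poisson counts, the model that the intervals assume. Differences of 1.5-fold and 2-fold were planted. The simulation therefore did not test differences near the limits used here, TMM scaling or the spread between cultures. RefSeq promoter windows were matched by symbol and start. Further work used Python 3.11.15, scipy 1.17.1 and matplotlib 3.10.9.

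Named are the 10 ERBB genes, PHF12, HDAC1 and AKT1, from each list at most 4 genes lower or higher by the rule with the largest absolute log2 ratio, and genes that overlap an ERBB gene. The genes of the lists named that are neither (ADAM10, ADAM17, RHBDF1, RHBDF2, CBL, LRIG2, LRIG3, GRB2, SHC1, BTC, EPGN, NRG2, NRG3, NRG4, EGF and ERBB4), the chromosome neighbours and the ratios between genes were chosen after values were seen. The members, lists and fold were chosen with earlier results of these data known.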

Additional observations from a re-analysis of the deposited data

How the results depend on the processing

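No paired analysis was possible because each group has 1 library, and for the same reason no replicate was left out. The number of ERBB genes at 0.8 of control or less stayed at 2, ERRFI1 and LRIG1, with total-count scaling, with size factors from DESeq2 1.42.0, with 0.5 or 1 CPM added, with the deposited TPM, and under no expression filter and a minimum of 5 CPM, and became 4 where a counting interval below 0 was the rule. At 1.5-fold and at 2-fold it was 0, and so was the number higher. The number higher, 1 (TGFA), became 0 with either pseudocount and 2 without the filter, which adds AREG. The median log2 ratio of the measured ERBB genes ran from −0.25 to −0.22. For 20 named genes under 5 alternatives, all 100 values lay within the counting interval of the reported value and 0 changed sign, while 17 crossed the limits of 0.8 of control or 25% above it, 2 of them those of TGFA and the rest those of ADAM12, RAB11FIP1, EHD1, SOCS2, EGR1 and TFAP2A. The counts of the lists under these settings were added after the data were seen. Over the 80 listed genes the number lower, 6, ran from 1 to 5, and the number higher, 3, from 2 to 4. Depth limits AREG, EREG, ERBB3 and HBEGF, whose intervals include 0 or which had no counts. The counting interval of ERBB2 (−0.18 to 0.07) also includes 0, but lies within the limits of 0.8 of control and 25% above it.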
